A study of Mus musculus with 60 samples.

Results

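In wild-type (WT) hippocampus, 7 lamin B1 domains on the autosomes had no counterpart in R6/1 hippocampus: they shared 0 bases with any R6/1 domain. They were found by overlapping the deposited domain lists, 1 per genotype, on build NCBIM37 (mm9). The 7 are among 134 WT domains on the autosomes and 145 on all chromosomes, cover 549 bins of 37 kb, and add up to 20.3 Mb, which is 2.15% of the autosomal WT domain length. Since the lists themselves chose these regions, that loss is a description and not a test, and with 1 list per genotype it has no replicate spread. The X chromosome, where 2 of 10 WT domains also had no R6/1 counterpart (4.81 and 2.48 Mb long), was left out by the rule.

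The mice of the ChIP-seq and RNA-seq were 30 weeks old and of a mixed CBA x C57BL/6 background, and R6/1 differ from WT by a transgene holding the first exon of human huntingtin with an expanded CAG repeat, a model of Huntington's disease. The lamin B1 ChIP-seq and its input came from 3 pools per genotype, with hippocampi of 5 mice in each pool and 3 sequencing lanes per pool. RNA-seq was made from 9 independent biological replicates per genotype. Reads on genes, as recovered from the RPKM, were 12299434 to 16457022 per WT library and 13260311 to 16736544 per R6/1 library. The ATAC-seq samples, whose labels and protocol differ on the age, were not analysed here.

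The nuclear lamina is a mesh of lamin proteins under the inner nuclear membrane. Long stretches of chromatin that touch it, called lamina-associated domains, are mostly poor in genes, rich in A and T, and hold many silent genes, and some change their contact as cells differentiate. Lamin B1 ChIP-seq reads such contact in bulk tissue. In bulk tissue, fewer cells of a type and less contact or less RNA per cell cannot be told apart.

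Promoters of 4 genes in the lost domains are shown first, because their genes separated the genotypes fully in RNA-seq. Each is the 250 bases before the RefSeq start (from the GRCm38.p6 table, placed on NCBIM37 by exact match), 5′ to 3′ on the gene's strand, with each CG pair in capitals. Btbd3 lies at chr2:138082070-138082319 on the plus strand with 8 CG pairs. Npy2r lies at chr3:82352008-82352257 on the minus strand with 12. Nalcn lies at chr14:124026367-124026616 on the minus strand with 2, the fewest of the named genes found in the table. Gria2 lies at chr3:80606758-80607007 on the minus strand with 19, and was chosen after its values were seen. The table gave no entry for Penk, Impad1 and Sdcbp.
Btbd3: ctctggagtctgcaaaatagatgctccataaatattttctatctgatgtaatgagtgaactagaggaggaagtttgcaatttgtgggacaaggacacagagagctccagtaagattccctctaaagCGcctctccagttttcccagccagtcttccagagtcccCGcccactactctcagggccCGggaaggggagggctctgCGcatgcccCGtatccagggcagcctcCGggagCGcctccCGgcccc
Npy2r: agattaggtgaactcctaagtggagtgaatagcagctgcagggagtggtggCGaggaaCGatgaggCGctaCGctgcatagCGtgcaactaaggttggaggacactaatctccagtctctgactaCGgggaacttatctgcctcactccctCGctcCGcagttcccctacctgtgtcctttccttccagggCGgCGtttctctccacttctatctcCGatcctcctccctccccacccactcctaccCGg
Nalcn: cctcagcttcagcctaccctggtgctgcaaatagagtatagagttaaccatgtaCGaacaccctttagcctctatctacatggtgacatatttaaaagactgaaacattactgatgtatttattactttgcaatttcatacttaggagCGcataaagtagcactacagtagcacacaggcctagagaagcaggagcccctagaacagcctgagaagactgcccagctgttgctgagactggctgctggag
Gria2: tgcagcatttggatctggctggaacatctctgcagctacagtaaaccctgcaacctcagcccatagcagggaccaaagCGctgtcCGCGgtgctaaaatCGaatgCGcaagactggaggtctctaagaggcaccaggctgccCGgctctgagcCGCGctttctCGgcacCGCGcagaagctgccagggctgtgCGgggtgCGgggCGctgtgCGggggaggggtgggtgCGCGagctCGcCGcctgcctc
Of the 35 genes tested below, 17 could be placed in this way, none of them among the 14 of the chromosome 4 domain, and they held 1 to 30 CG pairs. For 15 of the 17 the RefSeq start lay within 1 kb of the GENCODE start that put the gene in its domain, and for Slc8a1 and Fgf14 it lay 88.8 and 485 kb away. Of the 15, 8 (53.3%) held at least 10 CG pairs in 250 bases, with a median of 12. Over the 17 the share was 47.1% and the median 8. All 27025 promoters listed, 1 a symbol, had a share of 38.2% and a median of 6. The 17 are protein-coding and passed a filter on expression, while the 27025 were not limited in this way. Whether the 17 differ from other tested genes in CG pairs was therefore not tested.

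The lost domains ranged from 1.18 to 5.25 Mb. The longest lay on chromosome 4, from 3034001 to 8288000, 0.04 Mb from the first sequenced base of that chromosome, and was 5.25 Mb long. The next, on chromosome 2 from 136974001 to 142117000, was 5.14 Mb long. The chromosome 8 domain, from 15355001 to 18500000, measured 3.15 Mb. Chromosome 3 held a pair of them, a proximal one from 79920001 to 82695000 (2.77 Mb) and a distal one from 127687001 to 128871000 (1.18 Mb, the shortest of the 7). The chromosome 17 domain, from 81992001 to 83398000, measured 1.41 Mb. The chromosome 14 domain, from 123802001 to the chromosome end at 125194864, measured 1.39 Mb.

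R6/1 domains lay well away from the 7. The nearest R6/1 domain lay 1.22 Mb from the proximal and 1.33 Mb from the distal domain of chromosome 3, 3.70 Mb from that of chromosome 17, and 5.51 to 7.14 Mb from those of chromosomes 4, 14, 2 and 8. The nearest other WT domain was kept in each case, with 74.3% to 99.4% of its length in R6/1 domains. Distance to that WT neighbour was 1.22 to 7.18 Mb (median 3.81), beside a median of 3.88 Mb for the 127 kept domains. Lost domains therefore lay no farther from other WT domains than kept ones did by this median, which was not tested. The WT domain just outside the rule, on chromosome 3 from 113257001 to 120805000, shared 27.45% of its length with R6/1 domains, followed by 41.67% for one on chromosome 18 (47582001 to 52910000) and 46.68% for one on chromosome 9 (80364001 to 94313000). The kept domains had a median of 94.9% shared (quartiles 81.6% and 99.2%).

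**Figure D1:**
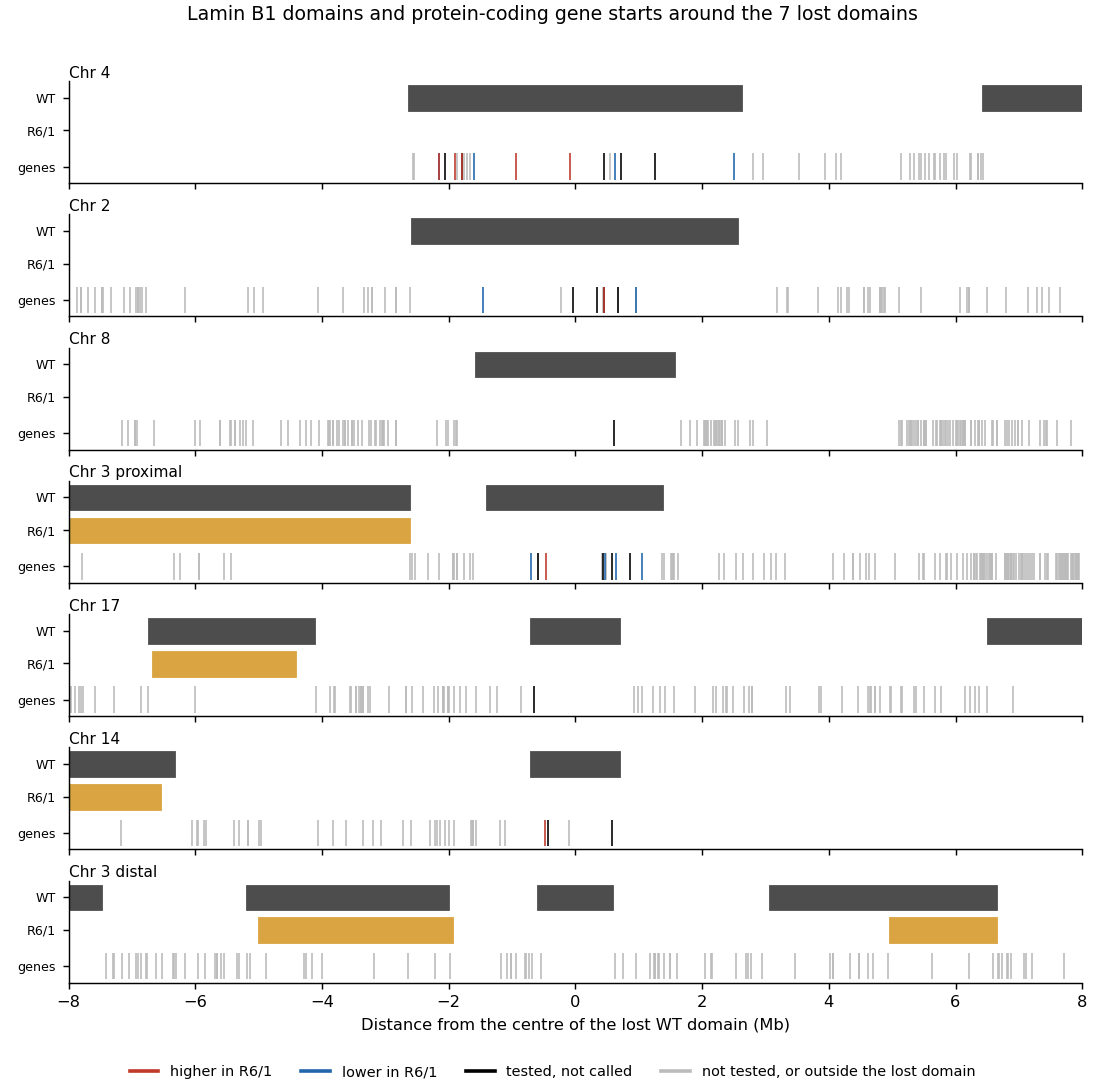
Maps of the 7 lost domains, with WT domains (grey), R6/1 domains (gold) and protein-coding gene starts (ticks, coloured by the RNA-seq call inside the lost domain and grey outside it) against the distance in Mb from the centre of each lost domain. The R6/1 row is empty opposite each central WT domain, the nearest R6/1 domain lies 1.22 Mb away at the least, and the chromosome 4 and 14 panels run past a chromosome end on the left and on the right.

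In WT the lost domains had low scores for lamin B1 over input. The score is the authors' value per domain, used only to rank and describe domains within the WT list. It was 11.82 for chromosome 4, 8.83 for chromosome 2, 6.22 for chromosome 8, 5.47 and 4.74 for the proximal and distal domains of chromosome 3, 4.85 for chromosome 14 and 4.45 for chromosome 17. The last is the lowest of all 134 autosomal domains, and the other ranks, counted from the top, were 76, 93, 112, 121, 130 and 129 in the order given. The median was 5.47, beside 14.19 for the 127 kept domains.

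Length and score go together in this list, so domains of like length were set beside them. The 66 kept domains within the lost domains' range of length had a median score of 8.83 and 3.45 score units per Mb, beside 2.25 per Mb for the lost ones, which ran from 1.72 (chromosome 2) to 4.01 (distal chromosome 3). All 7 were under 6 Mb, and none of the 50 autosomal WT domains of at least 6 Mb was lost. Many kept domains had low scores too. Of 59 autosomal domains with a score no higher than that of the chromosome 4 domain, 7 were lost. Of 20 with a score under 6, 4 were lost. Among WT domains with a score at or above the median of the list, 0 were lost. Whether the low WT scores account for the absence from the R6/1 list was not tested. Position at a chromosome end was counted as well: 2 of 7 lost domains (chromosomes 4 and 14) began or ended within 1 bin of 37 kb of an end of the sequenced chromosome, beside 8 of 127 kept ones.

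**Figure D2:**
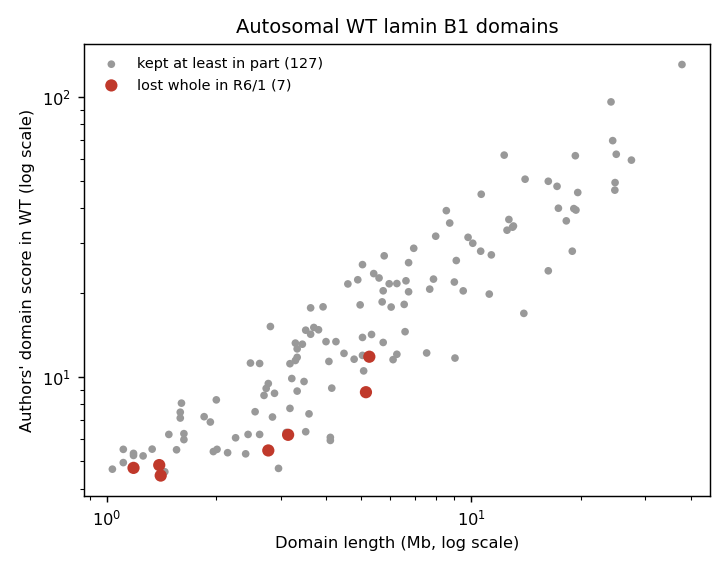
Length (Mb, log scale) against the authors' score (log scale) of the 134 autosomal WT domains, with the 7 lost domains in red. The red points lie at scores of 4.45 to 11.82 and lengths of 1.18 to 5.25 Mb, among grey points of kept domains, and at the lower side of the score for their length from 2.77 Mb upwards.

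The lost domains were AT-rich like other lamina-associated sequence. Their GC content was 39.4% over all bins, between 38.3% in sequence that was a domain in both genotypes (21380 bins) and 44.1% in sequence in no domain (38630 bins). Other sequence that was a domain in WT only, such as trimmed ends and gaps, stood at 40.3% (3611 bins), and sequence gained in R6/1 at 41.0% (670 bins). Single lost domains ran from 38.0% (chromosome 14) to 40.5% (chromosome 8, sixth highest of the 134). Each flank of up to 370 kb outside a lost domain was richer in GC than the domain (the chromosome 14 domain has 1 flank): the chromosome 8 flanks held 45.6% and 44.6%, those of chromosome 17 held 40.3% and 46.7%, and the chromosome 2 flanks 41.4% and 40.8% beside 39.1% inside. On chromosome 4 only 1 sequenced bin lay before the domain.

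Pooled over the lost domains, protein-coding genes were sparse and long. By single domain the contrast in density was smaller. Lost domains had a median of 2.14 protein-coding starts per Mb (0.32 to 4.68). The 66 kept domains of like length had a median of 2.88 (0 to 53.33). GENCODE places 141 gene starts in the lost domains, 6.95 per Mb, of which 52 are protein-coding (2.56 per Mb), beside 4.03 protein-coding starts per Mb in shared sequence, 5.66 in other WT-only sequence and 12.03 in no domain. Pseudogenes made up 29.8% of the starts, beside 17.4% in shared sequence, 13.5% in other WT-only sequence and 10.1% in no domain. Of the 549 bins, 437 (79.6%) held no gene start, close to the 79.9% of shared sequence. The median protein-coding gene was 38.2 kb long, beside 5.5 kb in shared sequence, 25.4 kb in other WT-only sequence and 16.7 kb in no domain. Of the 52, 10 (19.2%) were over 200 kb, beside 6.2%, 9.4% and 3.6% in the same order. These properties have no replicates and carry no test, since bins of a domain are not independent.

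The 7 domains differed widely in what they hold. The chromosome 4 domain carried 64 of the 141 starts: 21 protein-coding genes, 23 pseudogenes and 20 others. The chromosome 2 domain held 35 starts, 11 of them protein-coding, and 57.0% of its length lay inside protein-coding genes. In the chromosome 8 domain the single protein-coding gene was Csmd1, a neuronal transmembrane protein with complement-control repeats, whose 1640 kb body lies whole inside. The proximal chromosome 3 domain was the densest, with 13 protein-coding starts at 4.68 per Mb, and also held the longest run without any start, 22 bins or 0.81 Mb. By the GENCODE bounds, the chromosome 17 domain took in only the start and 21.6% of the body of Slc8a1, the plasma membrane sodium-calcium exchanger. Its RefSeq start lies 88.8 kb farther upstream, also inside the domain, so this share depends on the annotation. In the chromosome 14 domain Nalcn, Itgbl1 and Fgf14 covered most of the 89.0% that lies in protein-coding genes. The distal chromosome 3 domain was close to a gene desert, with 3 starts, 1 of them protein-coding (Gm10650, 2.0 kb long), and none with a row in the expression table.

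**Figure D3:**
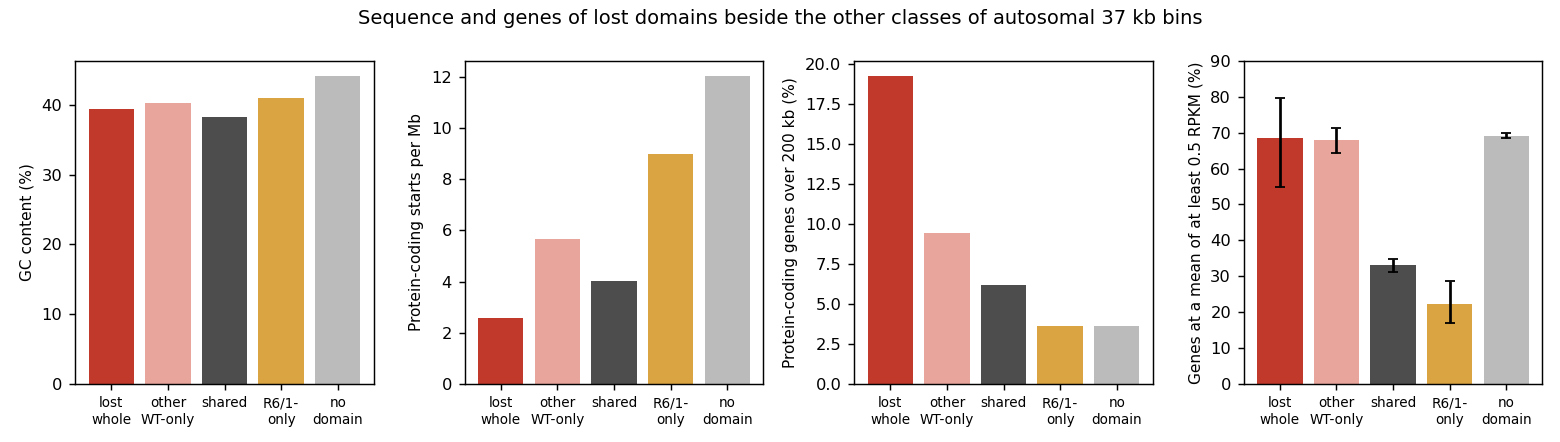
GC content, protein-coding starts per Mb, percent of protein-coding genes over 200 kb and percent of genes with a mean level of 0.5 RPKM or more. The classes are lost domains, other WT-only sequence, shared domains, R6/1-only domains and no domain. Error bars are 95% Wilson intervals that treat genes as independent, and give no test between classes. Pooled over bins, lost domains stand lowest in protein-coding density (2.56 per Mb) and highest in long genes (19.2%). Among genes with a row, their share of expressed genes (68.6%) is above that of shared domains (33.0%).

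Of the genes with a row in the expression table, those of the lost domains passed 0.5 RPKM about as often as those outside domains. RPKM, reads per kilobase scaled for depth, allow levels to be compared between genes. Of 141 gene starts, 51 had a row in the expression table (45 of the 52 protein-coding genes) and 90 did not. Of the 51, 35 (68.6%) had a mean of at least 0.5 RPKM over the 18 libraries. The 95% Wilson interval of 55.0 to 79.7 treats genes as independent, which genes sharing a domain need not be. Of the 51, 24 lay in the chromosome 4 domain, so the interval may be too narrow and gives no test between classes. The share was 68.0% in other WT-only sequence, 69.2% in no domain, 33.0% in shared domain sequence and 22.3% in R6/1-only sequence. Over all annotated starts, with or without a row, it was 24.8% in lost domains, 16.6% in shared sequence and 11.5% in R6/1-only sequence. It was 39.1% in other WT-only sequence and 44.4% in no domain. Of the starts in lost domains 63.8% had no row, beside 49.8% in shared sequence and 35.9% in no domain. Where lost domains stand thus depends on the denominator. They stood near sequence outside domains among measured genes, and nearer to shared domains among all starts, but above shared domains by both. Of their 45 measured protein-coding genes 77.8% passed, a share not counted for the other classes. The median WT level of the 35 was 10.7 RPKM and the median R6/1 level 8.42, beside 8.27 and 8.26 over all 14446 genes that passed the filter.

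The 16 genes under the filter were low in both genotypes. They include the vomeronasal receptor genes Vmn1r2 and Vmn1r3 and the retinol dehydrogenase family gene Sdr16c6, all listed at 0 in the 18 libraries, and Mos, a germ cell kinase, at 0 to 0.129 RPKM in WT and 0 to 0.0788 in R6/1. Cyp7a1, the rate-limiting enzyme of bile acid synthesis in liver, had 1 read in 1 R6/1 library and none elsewhere. In all, 6 were listed at 0 in all 18 libraries, 7 had a higher mean in R6/1 and 3 a lower one, and none separated the genotypes. Their summed level ran from 0.366 through a median of 0.534 to 0.865 RPKM in WT and from 0.341 through 0.756 to 0.916 in R6/1, so the genotypes overlapped. Only Rbm46, an RNA-binding protein of germ cells, reached 0.5 RPKM in any library: 0.277, 0.335 and 0.439 (lowest, median, highest) in WT and 0.276, 0.525 and 0.738 in R6/1. When the filter was left out, Rbm46 was called higher (log2 fold change 0.23, SE 0.083, limma adjusted p = 0.0391).

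Among the 35 tested genes, all protein-coding, changes went both ways. With limma on log2(RPKM + 0.5) over all 14446 tested genes and a Benjamini-Hochberg threshold of 0.05, 8 were higher and 10 lower in R6/1. Together that is 51.4% called, beside 48.3% of all tested genes (24.8% higher and 23.5% lower), so the share lay near the background. The median log2 fold change was -0.005, beside 0.004 over all tested genes, and the median absolute change 0.17, beside 0.159. In other WT-only sequence 43.4% were called, in shared sequence 49.0%, and in no domain 49.0%. In the authors' deposited table, 9 of the 40 members with an adjusted p were higher and 10 lower, beside 40.4% called over all its genes with an adjusted p. Libraries of the genotypes did not overlap for 6 of the 35 (17.1%), beside 11.9% of all tested genes: Impad1 and Nalcn were higher, and Penk, Npy2r, Btbd3 and Gria2 lower. Over all tested genes without overlap, 795 were higher and 921 lower. A change of at least 0.5 on the log2 scale was seen for 5 of 35 (14.3%), beside 8.82%, and all 5 were decreases (Penk, Npy2r, Btbd3, Tdo2 and Car8). The 8.82% was not split by direction, so a lean to decreases cannot be set against all tested genes.

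**Figure D4:**
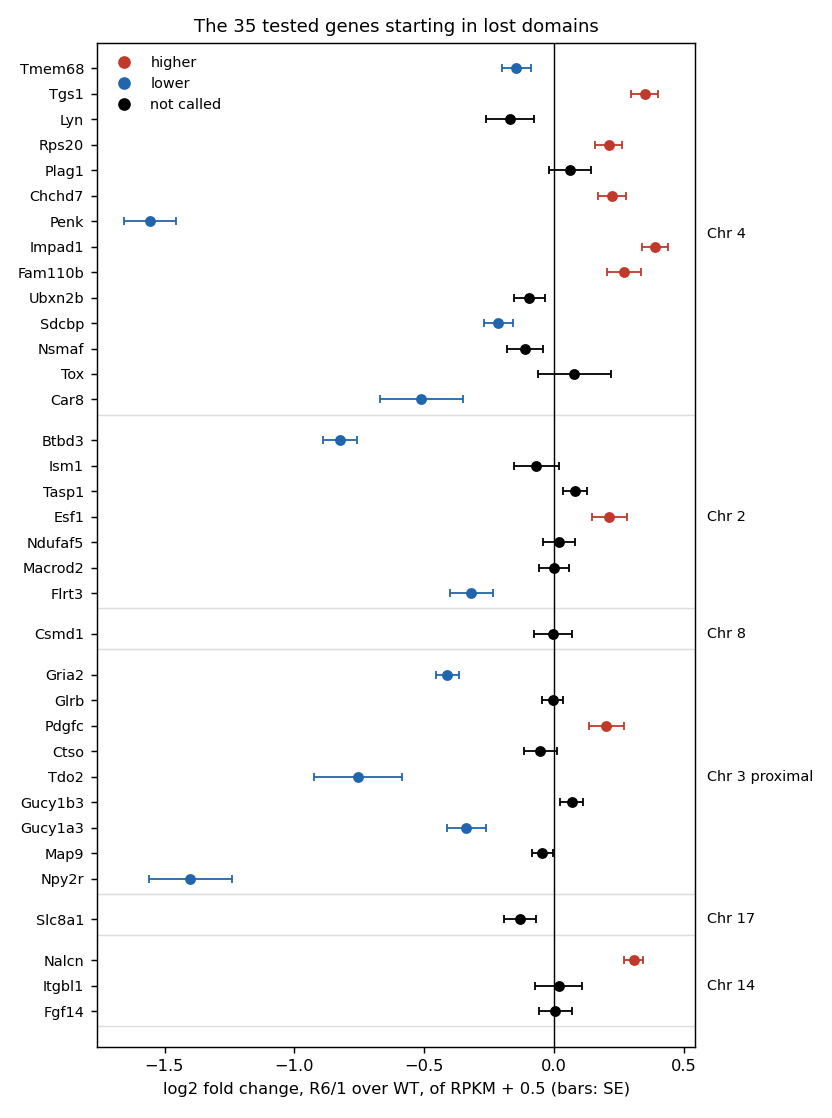
log2 fold change of R6/1 over WT (of RPKM + 0.5, with SE bars) of the 35 tested genes, grouped by domain and in order along the chromosome. Decreases reach -1.56 (Penk) and -1.40 (Npy2r), no increase passes 0.39 (Impad1), and domains with several genes hold both directions or uncalled genes beside called ones.

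The largest decreases were those of Penk, Npy2r and Btbd3, all genes of neurons. Penk encodes proenkephalin, the precursor of enkephalin opioid peptides, and lies on chromosome 4 (4060678 to 4065966, minus strand), 1030 kb inside the domain. Its level was 12.7, 15.5 and 21.1 RPKM (lowest, median, highest of 9) in WT and 3.79, 5.25 and 6.22 in R6/1, and every R6/1 library lay under every WT library. The means were 16.3 ± 3.09 and 5.19 ± 0.832 (SD, 9 libraries each), and the change was -1.56 on the log2 scale (limma adjusted p = 4.1e-10, SE 0.10). Penk overlaps a non-coding gene on the opposite strand, A830012C17Rik. The strand setting of the authors' counting is not given in the sources used here.

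Npy2r encodes a receptor for neuropeptide Y and lies on chromosome 3 (82342305 to 82352008, minus strand), 343 kb inside the proximal domain. Its level was 14.1, 21.1 and 33.7 RPKM in WT and 4.97, 7.83 and 10.2 in R6/1, again without overlap. The log2 fold change was -1.40 (SE 0.16, limma adjusted p = 5.93e-07). Gria2, in the same domain (80488858 to 80606713, minus strand), encodes the AMPA receptor subunit that limits calcium entry, and was the most highly expressed of the 35 in WT. It ran at 95, 109 and 121 RPKM in WT and at 71.8, 82.1 and 88.1 in R6/1, which did not overlap (-0.41, SE 0.045, limma adjusted p = 4.01e-07).

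Btbd3, a BTB-domain protein that orients dendrites towards active axons, starts on chromosome 2 (138082301 to 138415028, plus strand) 1110 kb inside its domain. Its level was 71.5, 84.5 and 106 RPKM in WT and 41.5, 48.2 and 53.8 in R6/1. The log2 fold change was -0.82 (SE 0.065, limma adjusted p = 3.86e-09), and no library crossed over.

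The remaining 6 decreases overlapped between genotypes. Tdo2, a tryptophan-degrading enzyme that marks dentate granule neurons, had 1.73, 3.10 and 4.51 RPKM in WT and 0.722, 1.54 and 2.39 in R6/1 (-0.76, SE 0.17, limma adjusted p = 8.31e-04). Car8, a carbonic anhydrase-related protein, had 0.928, 1.09 and 3.51 RPKM in WT and 0.470, 0.778 and 1.20 in R6/1 (-0.51, limma adjusted p = 0.0138). Its WT maximum is a single library that stands apart from the rest. Gucy1a3, a subunit of the nitric oxide receptor guanylate cyclase, fell by 0.34 on the log2 scale (limma adjusted p = 0.0011), while its partner subunit Gucy1b3 from the same domain did not pass the test (medians 51.4 and 55.7 RPKM, limma adjusted p = 0.214). Whether the subunits differ from each other was not tested. Flrt3, a cell adhesion protein whose gene sits inside an intron of Macrod2 on the opposite strand, fell by 0.32 (medians 10.6 and 8.48 RPKM). Sdcbp, or syntenin, a scaffold protein, fell by 0.21 (medians 97.1 and 86.8 RPKM). It overlaps the 3′ part of Nsmaf on the opposite strand, which did not pass. Tmem68 fell by 0.14 (medians 16.4 and 14.5 RPKM, limma adjusted p = 0.0339), a call that was lost when any of 8 libraries was left out.

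Increases were smaller. Impad1, a Golgi nucleotide phosphatase on chromosome 4 (4689631 to 4720502, minus strand), had 23.7, 25.4 and 28.1 RPKM in WT and 29.0, 34.2 and 38.2 in R6/1. Its log2 fold change was 0.39 (SE 0.051, limma adjusted p = 3.13e-06) and the genotypes did not overlap. Nalcn, the sodium leak channel of neurons, starts on chromosome 14 (123675863 to 124026366, minus strand) 224 kb inside the domain, and 64.0% of its body lies within. It had 18.6, 20.0 and 21.5 RPKM in WT and 23.7, 24.5 and 27.1 in R6/1, also without overlap (0.31, SE 0.038, limma adjusted p = 1.63e-06). These are the only members that were higher in every R6/1 library than in every WT library.

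**Figure D5:**
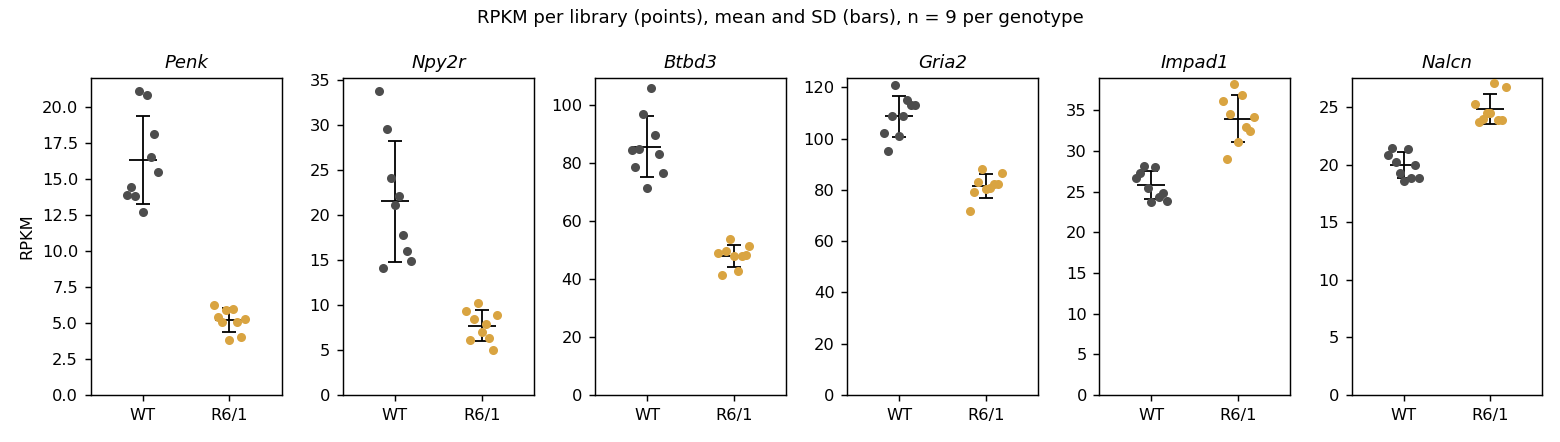
RPKM in each of the 9 WT and 9 R6/1 libraries, with mean and SD, for the 6 genes of lost domains whose genotypes did not overlap. Penk, Npy2r, Btbd3 and Gria2 are lower in all R6/1 libraries than in any WT library, and Impad1 and Nalcn are higher.

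The other 6 increases overlapped between genotypes. Tgs1, which trimethylates the caps of small nuclear RNAs, rose from a median of 8.53 to 10.8 RPKM (0.35, SE 0.053, limma adjusted p = 2e-05). Fam110b, a centrosomal protein gene of 464 kb, rose from 12.1 to 15.8 (0.27, SE 0.065, limma adjusted p = 0.0018). Chchd7, a mitochondrial protein, rose from 4.64 to 5.35 and Esf1, a ribosome biogenesis factor, from 6.60 to 7.89. Pdgfc, a growth factor, rose from 1.95 to 2.27. Rps20, a ribosomal protein, rose from 32.6 to 39.3, and since ribosomal protein genes have many processed copies, reads could be split among them. The log2 fold changes of these 4 ran from 0.20 to 0.22.

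Genes that start side by side on opposite strands differed in their calls. Whether the genes of a pair differ from each other was not tested. Tmem68 and Tgs1 start 22 bp apart on opposite strands. Tmem68 was lower, a call that some refits lost, and Tgs1 was higher. Plag1 and Chchd7 start 465 bp apart, and Chchd7 was higher while Plag1, a zinc finger transcription factor, did not pass (medians 0.823 and 0.948, limma adjusted p = 0.551). Esf1 and Ndufaf5 start 82 bp apart, and Esf1 was higher while Ndufaf5, a complex I assembly factor, did not pass (medians 8.43 and 9.33, limma adjusted p = 0.801). For each library, the mean log2(RPKM + 0.5) over the tested genes of a domain overlapped between genotypes in all 6 domains that have such genes. The proximal chromosome 3 domain came nearest to separating, with 4.09, 4.24 and 4.31 in WT and 3.76, 3.90 and 4.09 in R6/1 over 9 genes, 4 of which were lower and 1 higher. Over all 35 genes the library means were 3.46 to 3.58 in WT and 3.33 to 3.48 in R6/1, a difference of -0.133, beside -0.029 for genes in no domain. The mean and the median of the 35 therefore differ: the median change was near 0, while the largest changes were decreases.

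The 3 longest genes of the lost domains did not pass the test. Macrod2, a mono-ADP-ribosylhydrolase gene spanning 2000 kb, had medians of 4.92 RPKM in WT and 4.96 in R6/1. Csmd1 had 6.78 and 6.64. Fgf14, an intracellular fibroblast growth factor that binds sodium channels and spans 699 kb, had 11.0 and 10.3. Their log2 fold changes were 0.000, -0.003 and 0.006, with SE of 0.057, 0.073 and 0.064. Of the 10 members over 200 kb, all tested, 2 were higher (Fam110b and Nalcn), 1 lower (Btbd3) and 7 uncalled, among them Tox, Tasp1, Itgbl1 and Slc8a1. Their median log2 fold change was 0.012, beside -0.082 over the 802 tested genes of that length, of which 118 were higher and 300 lower. That is 30.0% of the 10 called, beside 52.1% of the 802. The 25 shorter members had 6 higher and 9 lower, beside calls in either direction in 49.7% of the 12123 tested genes up to 200 kb. The difference between long and short members was not tested. Slc8a1, at 18.6, 20.8 and 24.6 RPKM in WT and 16.1, 20.0 and 22.0 in R6/1, missed the threshold (-0.13, SE 0.062, limma adjusted p = 0.0915) and passed it without WT replicate 5 (-0.16, limma adjusted p = 0.0409).

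Position inside a domain was described for the same genes. By GENCODE starts, the tested genes lay a median of 915 kb from the nearer border (56.9 to 2540 kb). Those under the filter lay a median of 911 kb from it. Only 6 tested genes lay within 370 kb of a border. The 18 called genes had a median of 874 kb.

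Just outside the borders, 2 genes that lie next to a lost domain were lower in R6/1. They were picked from the nearest genes on either side of the domains after values were seen, and do not stand for the other neighbours. Jag1, a Notch ligand starting 31.6 kb before the chromosome 2 domain, had 2.00, 2.49 and 3.16 RPKM in WT and 1.80, 1.90 and 2.56 in R6/1 (-0.29, limma adjusted p = 0.00315). Fam198b, 231.5 kb before the proximal chromosome 3 domain, had 0.834, 0.907 and 1.19 RPKM in WT and 0.542, 0.608 and 0.681 in R6/1, without overlap (-0.40, limma adjusted p = 5.67e-05). Its level lay near the filter of 0.5 RPKM, and its log2 fold change ran from -0.59 to -0.29 over the alternative fits. Within 370 kb outside any border, 21 genes were tested, 3 were higher and 5 lower (38.1% called, beside 48.3% of all tested genes).

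Transcripts of the lamina itself were measured in the same libraries. Lmnb1, the protein targeted by the ChIP antibody, had a mean of 2.62 RPKM in WT (SD 0.247, n = 9) and 2.84 in R6/1 (SD 0.183, n = 9), which did not pass (0.10, SE 0.055, limma adjusted p = 0.141) but did with quantile normalization (limma adjusted p = 0.03) and when libraries were scaled to their totals of reads (limma adjusted p = 0.0224). Lmna did not pass (0.09, limma adjusted p = 0.23), except with own totals (limma adjusted p = 0.0464), and Lmnb2 was higher (0.20, limma adjusted p = 0.0132). Of 17 nuclear envelope genes, 7 were higher (Lmnb2, Tmpo, Emd, Lemd3, Ankle2, Sun2 and Zmpste24) and 1 lower (Banf1), beside 24.8% higher and 23.5% lower of all tested genes, with a median of 0.10. With own totals 10 were higher and 0 lower, a scaling under which 66.9% of all calls were higher.

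Cell type markers moved between the genotypes too, and their part in the changes above was not tested. Of all tested genes, 23.5% were lower, beside which the counts of markers stand. All 5 dentate granule markers were lower, Tdo2 among them, with a summed level of 67.3 to 101 RPKM in WT and 41.3 to 52.2 in R6/1. All 4 general markers of excitatory neurons were lower (1620 to 1960 and 897 to 1100), as were all 4 of CA3 (176 to 298 and 124 to 162), 3 of 4 of CA1 (136 to 195 and 102 to 112) and 5 of 6 of inhibitory neurons (351 to 428 and 212 to 278). Of 5 striatal projection neuron markers tested, 3 were lower (20.7 to 26.0 and 13.3 to 16.9). All 4 astrocyte, 3 of 4 oligodendrocyte and 2 of 4 microglia markers were lower, with summed levels that overlapped, and none of 3 endothelial and 4 choroid plexus markers passed. Choroid plexus markers varied most between libraries, from 25.1 to 1070 RPKM in WT and from 37.9 to 1730 in R6/1. No marker of any list was at 0 in all libraries. The dentate granule, CA1 and CA3 markers that define hippocampus summed to at least 41.3, 102 and 124 RPKM in every library.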

How the data were processed

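Groups follow the genotype label of each sample. Bowtie, TopHat and DESeq2 and build mm9 are listed in the submitters' processing notes, without versions. The domain lists were deposited with 1 score per domain, and name the EDD caller and lamin B1 against input. EDD settings and how the 3 replicates were combined are not given in the sources used here. All bounds are multiples of 37 kb or a chromosome end of NCBIM37, and GENCODE vM1 gave gene starts. Of the 24508 symbols, 20510 matched it by name and 1729 through RefSeq GRCm38.p6 synonyms, used for names only (90.7%).

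The RPKM were scaled for depth by size factors by the authors. Reads were recovered from them with the deposited mean normalized counts (a signal, not raw counts). With the highest values left out and zeros included, 99.88% to 99.92% of values lay within 0.05 of a whole read. The size factors were recovered by seeking that closeness, so the share is not an independent check. The deposited comparison table also gives log2 fold changes with standard errors, a test score and p-values with adjusted p-values, made by the authors, per the file headers.

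The 14446 genes whose mean over the 18 libraries reached 0.5 RPKM were tested with limma 3.58.1 in R 4.3.3 (lmFit, eBayes with trend, two-sided) on log2(RPKM + 0.5), Benjamini-Hochberg adjustment over all of them and a threshold of 0.05. On simulated data, with 50 of 14446 genes changed at each size and independent noise, the fit found 56% of genes changed by 0.3 (log2). It found 94% of those changed by 0.6 and 100% of those changed by 1, and 4.37% of its calls were false. In the real comparison 48.3% of genes were called, so these rates need not hold there. Libraries of a genotype correlated at 0.9808 to 0.9908 and none were identical. Genes named are, per domain, the most expressed and the longest, the called genes without overlap, the 5 largest called increases and decreases, and 3 lamin genes; 2 border genes and the remaining called members were added after values were seen, and 1 result is not reported here. The members and all lists were chosen with earlier results of these data known. Wilson intervals are of shares of genes, take genes as independent and hold no spread between libraries. No molecular identifiers are named. Alternatives were other pseudocounts, filters, scalings, a replicate block, no trend, leaving out each library, the authors' table, and other rules for domains and genes.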

Additional observations from a re-analysis of the deposited data

Results flagged for a closer look

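In 6 of 66 groups of 9 libraries, 1 library stood farther from the rest than Dixon's 95% limit allows, where chance alone gives about 3.3. Car8 reached 3.51 RPKM (316 reads) in WT replicate 7, with the next WT library at 1.47; without that library its log2 fold change was -0.37 in place of -0.51. The same library gave the highest WT mean of the chromosome 4 domain that holds Car8, 3.42 on the log2 scale with the next at 3.30. Gucy1a3 reached 15.0 RPKM in WT replicate 2 (next 11.6, log2 fold change -0.28 without it). Pdgfc was lowest in WT replicate 4 at 1.52 RPKM (next 1.87, log2 fold change 0.17 without it). Slc8a1 was lowest in R6/1 replicate 2 at 16.1 RPKM (next 19.1, log2 fold change -0.09 without it). As Slc8a1 is the only tested gene of the chromosome 17 domain, that domain's mean was lowest in the same library, 4.05 with the next at 4.29.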

How the results depend on the processing

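The count of lost domains and their length were the same when up to 10% of sharing was allowed or 37 kb of distance required (7 and 20.3 Mb), and 9 domains and 27.6 Mb with the X chromosome. Among WT domains with a score at or above the median of the list, 0 domains and 0 Mb were lost. Protein-coding genes alone gave 2.56 gene starts per Mb in place of 6.95.

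The calls among genes of lost domains stayed at 8 to 10 higher and 9 to 10 lower under every pseudocount, filter, scaling, the fit without trend and the authors' table; with the X chromosome they were 10 and 14 of 52. Leaving out each library gave 8 to 9 higher and 9 to 11 lower, with a median log2 fold change of -0.031 to 0.006. With own totals of reads the median was 0.065, where that of all tested genes was 0.069 and 66.9% of all calls were higher in place of 51.4% (58.3% with quantile normalization); 10 members were then higher and 9 lower.

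With the replicate number as a block there were 8 higher and 10 lower and a median of -0.005. Whether the numbers pair the libraries was not settled. With genotype means removed, WT and R6/1 libraries of the same number correlated at -0.05 to 0.24 (median 0.09). Those of different numbers correlated at -0.19 to 0.18. Only 3 of 9 same-numbered pairs were over 0.1, and only 2 of 9 libraries of each genotype correlated best with their own number.

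Of 648 refits of 27 named genes, 607 kept direction and call, and 20 genes did so throughout. Genes near 0 changed sign: Csmd1 was 0.013 with quantile normalization, 0.065 with own totals and -0.034 to 0.031 without single libraries, Fgf14 -0.024 to 0.029, and Macrod2 -0.026 to 0.024 and -0.000 with a pseudocount of 0.1. Tmem68 lost its call in 9 refits (-0.073 with own totals, limma adjusted p = 0.282). Depth limits the genes under the filter, most of which had 0 to 3 reads a library.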
